A study of Mus musculus with 4 samples.

Results

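The genes described here are the cyclin-dependent kinase (CDK) inhibitor genes of the mouse, 8 of 52636 gene lines in the table. They were chosen by symbol, as the genes named Cdkn that encode inhibitors or the CDK phosphatase, when the R882H over EV differences of these libraries were already known. Those differences are therefore given as a description, with no p-value for the family. Of the 10 symbols in the table that begin with Cdkn, the other 2 (Cdkn2aip and Cdkn2aipnl) encode proteins that are not inhibitors and are treated below as neighbours of the pathway.

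RNA came from Hoxb8 cells, a mouse line named for the homeobox gene Hoxb8; progenitors immortalised with this gene are used as a model of early myeloid cells. Both groups carry that background. The R882H group (n = 2 libraries) has the genotype label DNMT3AR882H; R882H is a leukaemia-associated variant of DNMT3A, a de novo DNA methyltransferase. It is set against the group labelled EV (n = 2), an abbreviation that the labels do not spell out and that commonly stands for empty vector. The labels give no treatment and no time, do not say which promoter drives the variant or how many clones or animals stand behind the line, and do not say that the libraries of a group are separate cultures, so error bars measure the spread between these libraries only.

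CDK inhibitors stop the kinases that drive the cell cycle. The INK4 proteins (p16Ink4a from Cdkn2a, p15Ink4b from Cdkn2b, p18Ink4c from Cdkn2c and p19Ink4d from Cdkn2d) bind CDK4 and CDK6 and keep them from D-type cyclins. The CIP/KIP proteins (p21 from Cdkn1a, p27 from Cdkn1b and p57 from Cdkn1c) bind cyclin and CDK together and act most strongly on CDK2 complexes. Cdkn2a also encodes p19Arf, which restrains MDM2 and so stabilises p53, and p53 in turn drives Cdkn1a. Cdkn3 encodes a phosphatase that removes the activating phosphate from CDKs. In blood cells, Cdkn2c and Cdkn1b are known for limiting progenitor division, and silencing of Cdkn2a is a common step in immortal growth.

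The 2 products of Cdkn2a are shown first, since they decide how its counts can be read. The p16Ink4a and p19Arf transcripts start at different first exons and then share the exons downstream, so 575 bases are common to both. All of the last 500 bases of the p19Arf transcript and 430 of the last 500 of the p16Ink4a transcript lie in shared exons. The libraries were made with a 3′ tag kit, whose reads fall near the poly(A) tail, and counts were given per gene, so the products could not be separated. The coding parts of the alternative first exons follow, on the minus strand of chromosome 4 of GRCm38, from GENCODE M21 (positions 89281986 to 89282111 for p16Ink4a and 89294334 to 89294523 for p19Arf). Capitals mark CpG dinucleotides, the main substrate of DNA methyltransferases.
p16Ink4a: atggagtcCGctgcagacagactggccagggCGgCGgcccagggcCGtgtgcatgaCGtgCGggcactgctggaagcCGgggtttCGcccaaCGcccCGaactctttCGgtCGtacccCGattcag
p19Arf: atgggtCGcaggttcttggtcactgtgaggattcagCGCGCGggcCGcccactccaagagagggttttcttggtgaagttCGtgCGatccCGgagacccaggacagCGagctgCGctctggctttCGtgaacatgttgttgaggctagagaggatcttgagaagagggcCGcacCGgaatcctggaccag

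Upstream of each first exon lies its own promoter. The 250 bases before the RefSeq starts of both (GRCm38.p6, minus strand, chr4:89282193-89282442 and chr4:89294620-89294869) are printed in the same way, because Cdkn2a is the member with tags in both R882H libraries and almost none in EV cells. For p19Arf the RefSeq start, 89294619, lies inside the GENCODE first exon, which begins at 89294653 on this strand. The last bases of that window therefore belong to the GENCODE exon.
Cdkn2a, p16Ink4a start: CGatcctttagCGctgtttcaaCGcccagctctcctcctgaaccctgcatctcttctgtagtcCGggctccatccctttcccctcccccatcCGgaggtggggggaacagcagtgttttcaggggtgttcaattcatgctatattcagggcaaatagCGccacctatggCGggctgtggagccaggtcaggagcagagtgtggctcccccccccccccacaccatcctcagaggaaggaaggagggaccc
Cdkn2a, p19Arf start: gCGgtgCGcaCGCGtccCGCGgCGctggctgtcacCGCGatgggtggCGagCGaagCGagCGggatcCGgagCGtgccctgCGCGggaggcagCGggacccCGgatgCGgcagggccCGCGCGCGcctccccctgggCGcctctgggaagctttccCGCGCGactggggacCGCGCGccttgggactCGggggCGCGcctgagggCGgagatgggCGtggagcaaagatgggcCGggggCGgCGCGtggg
The window before the p19Arf start holds 40 CpG, more than 98.7% of 32851 such windows in the RefSeq table, and the window before the p16Ink4a start holds 7. The median window holds 6. Methylation was not measured in these libraries.

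**Figure D1:**
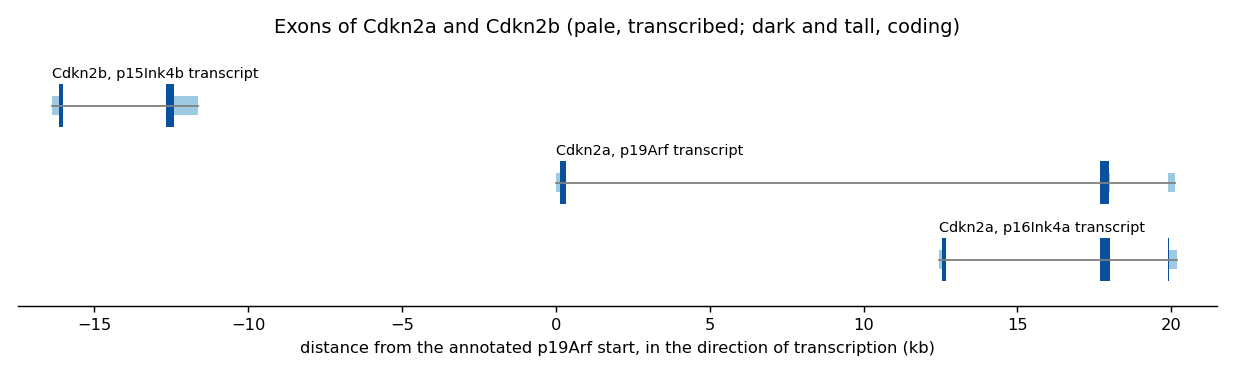
Exons of Cdkn2a and Cdkn2b, plotted by distance from the annotated p19Arf start in kb, in the direction of transcription; pale boxes are transcribed and tall dark boxes are coding. Downstream exons are shared by both Cdkn2a transcripts, with all of the last 500 bases of p19Arf and 430 of the last 500 of p16Ink4a in common. Cdkn2b ends 11646 bases before the p19Arf start.

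Libraries held 5921985 and 5847609 counts in R882H cells and 5470330 and 5605092 in EV cells, and a count of 0 allows up to 3 counts, or 0.507 to 0.548 CPM, the counts-per-million scale of edgeR. CPM below are scaled by TMM factors, which adjust for library composition. All 14 leukocyte and myeloid progenitor markers passed the count filter, with list sums of 5317 and 5350 CPM in R882H cells and 3514 and 3480 CPM in EV cells. Of these, 4 were higher in R882H cells (Mpo, Kit, Flt3 and Ctsg), 3 lower (Csf2rb, Cebpa and Hoxb8) and 7 not called, among them Ptprc, Spi1 and Cd34. Mpo moved most, at 1242 CPM in R882H cells and 32.7 CPM in EV cells, Elane and Itgam stayed under 10 CPM in every library, and Hoxb8 itself had 15 and 4 counts in R882H cells and 25 and 44 in EV cells. Several other marker lists moved with the groups. All 7 tested B lineage markers were higher in R882H cells (list sums of 1664 and 1676 CPM, against 567 and 548 CPM in EV cells), and Pax5 was at 0 in EV cells. Ms4a1, which was not tested, had 0 counts in both R882H libraries and 2 and 0 in EV cells, within the floor. Basophil and mast cell markers summed to 406 and 417 CPM in R882H cells and 91.1 and 95.1 CPM in EV cells, with 3 of 4 tested higher, 1 lower and Fcer1a at 0 in every library. Megakaryocyte markers summed to 28.1 and 22.3 CPM in R882H cells and 1062 and 874 CPM in EV cells. Most of the EV sums was Pf4 alone, at 1033 and 844 CPM in EV cells and 15.1 and 10.5 CPM in R882H cells. Of the 4 tested, 2 were lower, 1 was higher and 1 was not called. Gp1bb, which was not tested, had 0 counts in both R882H libraries and 1 in each EV library, within the floor. Lists of T cell, erythroid, and fibroblast and epithelial markers summed to at most 14.1 CPM in any library. The part of these cell type markers in the results below was not tested, and in bulk RNA fewer cells of a type and less RNA per cell cannot be told apart. The Y-linked genes Ddx3y, Eif2s3y, Kdm5d and Uty together had 110 and 87 counts in R882H cells and 2 and 4 in EV cells, while Xist had 1880 and 1509 counts in R882H cells and 1463 and 1438 in EV cells. Because the Y-linked transcripts separate the libraries exactly as the labels do, a difference between cell sources and an effect of DNMT3A R882H cannot be told apart in any result below. Dnmt3a itself had 254 and 239 counts in R882H cells and 264 and 270 in EV cells, and tags at its 3′ end need not cover a transgene, so this does not check the labels.

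R882H cells had more Cdkn1a, Cdkn1b and Cdkn2a transcript and less Cdkn2c, with smaller gains of Cdkn2d and Cdkn3. Cdkn1c and Cdkn2b were at or near 0 in both groups. Of the 8 members, 6 passed the count filter, of which 5 lay past the threshold in the higher direction and 1 in the lower (edgeR, adjusted p under 0.05). Among all 11444 tested genes, 38.8% were called, 19.3% higher and 19.4% lower, and nothing is read from the members' count, since the contrast was in view when they were chosen. Their median log2 fold change was 0.79, against 0.01 over all tested genes, and for the same reason nothing is read from that difference. The median does not depend on the fitted value of Cdkn2a, which stays the highest of the 6 at its lower bound too. In each of the 6, the R882H and EV libraries did not overlap. How many of all tested genes separate in that way was not counted, so nothing is read from the separation.

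**Figure D2:**
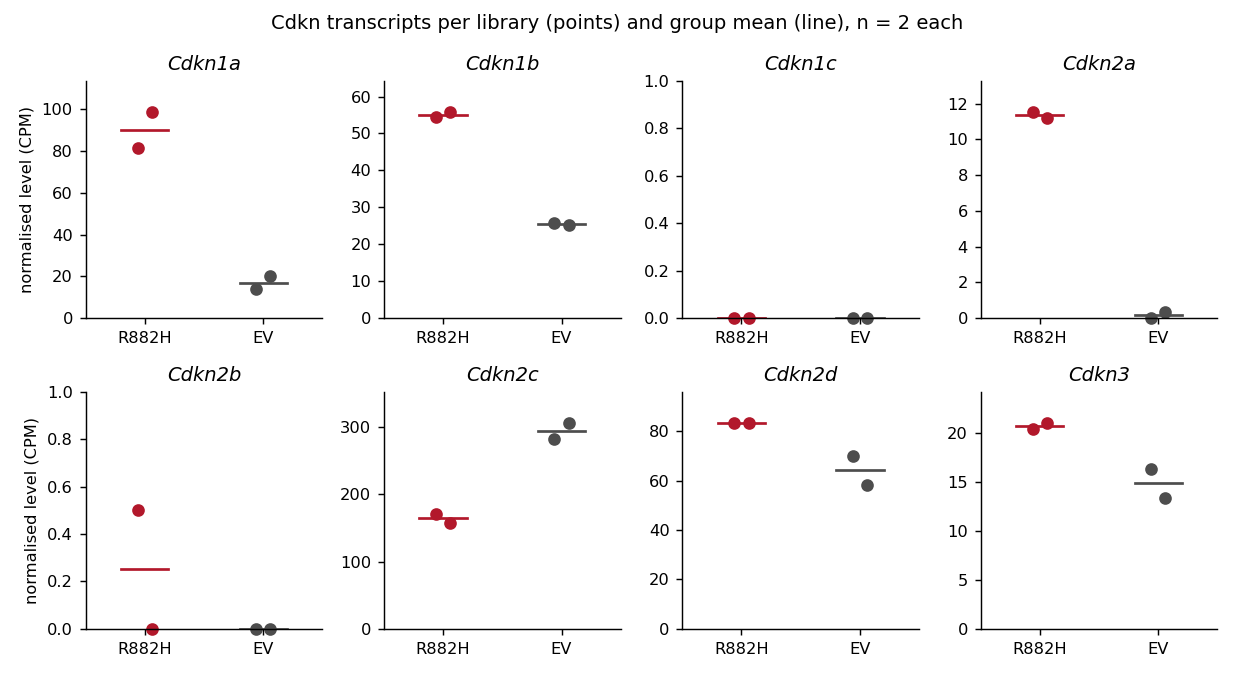
Normalised level (CPM) of each Cdkn gene in every library (points), with the group mean (line), for R882H (left, n = 2) and EV (right, n = 2); each panel has its own axis, starting at 0. Cdkn2c is the gene that is lower in R882H cells, while Cdkn1c and Cdkn2b stay at or near 0.

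Among the CIP/KIP genes, Cdkn1a showed the larger gain. Cdkn1a (ENSMUSG00000023067, mm10 chromosome 17, 29090976 to 29100727) had 486 and 562 counts in R882H cells, against 75 and 115 in EV cells. The R882H libraries were far above the EV libraries, and replicates of both groups differed visibly among themselves. Its level was 90.0 ± 12.3 CPM in R882H cells and 17.0 ± 4.63 CPM in EV cells (SD, n = 2 each), a log2 fold change of 2.40 ± 0.17 (SE), or 5.27-fold. Cdkn1b (ENSMUSG00000003031, chromosome 6, 134920401 to 134925513) had 325 and 318 counts in R882H cells, against 141 and 143 in EV cells. These replicates lay close together in both groups, at 55.1 ± 1.02 CPM in R882H cells and 25.6 ± 0.436 CPM in EV cells, a log2 fold change of 1.11 ± 0.16. Cdkn1c (ENSMUSG00000037664, chromosome 7, 143458339 to 143461050), which encodes p57 and is expressed from the maternal allele, had 0 counts in every library, so no fold is given.

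Cdkn1a has 2 RefSeq starts, and the window before the upstream one holds 2 exact matches to the p53 decamer, the 10-base unit that p53 binds in pairs. It is shown here because Cdkn1a is the classical p53 target and other p53 targets are described below. The plus-strand window is chr17:29090729-29090978 (GRCm38.p6, RefSeq), with the matches in capitals.
Cdkn1a, upstream start: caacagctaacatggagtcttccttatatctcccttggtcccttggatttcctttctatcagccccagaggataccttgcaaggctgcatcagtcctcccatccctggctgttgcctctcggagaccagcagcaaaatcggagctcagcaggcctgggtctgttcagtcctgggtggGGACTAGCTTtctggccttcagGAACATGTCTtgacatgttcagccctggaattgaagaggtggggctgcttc
Of all windows, 7.13% hold at least 1 match. The window before the downstream start (chr17:29093519-29093768) holds none, but has 19 CpG against 2 in the upstream window.

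The INK4 genes moved in opposite directions. Cdkn2a (ENSMUSG00000044303, chromosome 4, 89274471 to 89294653) had 69 and 64 counts in R882H cells, against 0 and 2 in EV cells. The gene was close to the detection limit in EV cells and steady at 11.4 ± 0.220 CPM in R882H cells. The ratio of normalised counts was 63.3, with an exact 95% interval of 17.2 to 528 that covers counting error only; the fitted fold of such a gene depends on the prior count and is not given. Both EV counts came from EV replicate 2, and without that library the ratio had only a lower bound, at least 20.7-fold against 3 counts. Without EV replicate 1 the ratio was 32.3, with an interval of 8.76 to 269. Its neighbour Cdkn2b (ENSMUSG00000073802, chromosome 4, 89306299 to 89311039) had 3 and 0 counts in R882H cells and 0 in both EV libraries, which is at the floor in both groups. The adjacent genes therefore differed in detection: Cdkn2a tags were present in both R882H libraries, and Cdkn2b tags in 1.

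Cdkn2c (ENSMUSG00000028551, chromosome 4, 109660876 to 109667189) was the most abundant member in every library and the member that was lower in R882H cells. It had 1024 and 900 counts in R882H cells, against 1542 and 1737 in EV cells. Both R882H libraries lay well below both EV libraries. The level was 165 ± 9.44 CPM in R882H cells and 295 ± 16.8 CPM in EV cells, a log2 fold change of -0.84 ± 0.13, which leaves 55.9% of the EV level. Cdkn2d (ENSMUSG00000096472, chromosome 9, 21288410 to 21291407) had 497 and 475 counts in R882H cells, against 382 and 330 in EV cells. Its R882H replicates were nearly identical at 83.3 ± 0.157 CPM, while the EV replicates were spread at 64.2 ± 8.35 CPM (log2 fold change 0.38 ± 0.14).

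Cdkn3 (ENSMUSG00000037628, chromosome 14, 46760541 to 46771669), the CDK phosphatase gene, had 122 and 120 counts in R882H cells, against 89 and 76 in EV cells. Both R882H libraries lay above both EV libraries, and the EV libraries were farther apart, at 20.7 ± 0.461 CPM in R882H cells and 14.9 ± 2.06 CPM in EV cells (log2 fold change 0.48 ± 0.19). Cdkn2d and Cdkn3 did not hold their calls: without R882H replicate 1, without R882H replicate 2, without EV replicate 2 and in DESeq2, both missed the threshold, with adjusted p between 0.119 and 0.188 for Cdkn2d and up to 0.262 for Cdkn3. In each of those 4 fits 3 members were called higher. The other 4 called members kept direction and call in all 12 alternatives.

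The sum over the family was nearly equal in the groups, while its make-up was not. All 8 members together reached 423 and 428 CPM in R882H cells, against 409 and 424 CPM in EV cells. Tag counts need no correction for transcript length, although priming can differ between genes, so sums weigh genes only roughly. CIP/KIP genes summed to 136 and 155 CPM in R882H cells and to 39.6 and 45.5 CPM in EV cells. INK4 genes summed to 267 and 253 CPM in R882H cells and to 353 and 365 CPM in EV cells. The ratio of CIP/KIP to INK4 tags was thus 0.509 and 0.612 in R882H cells, against 0.112 and 0.125 in EV cells. Cdkn2c alone made up 40.5% and 36.9% of the family's tags in R882H cells (Wilson 95% intervals 38.6 to 42.5% and 35.0 to 38.8%), against 69.2% and 72.3% in EV cells (67.2 to 71.1% and 70.5 to 74.0%). Cdkn1a made up 19.2% and 23.0% in R882H cells, against 3.36% and 4.79% in EV cells.

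**Figure D3:**
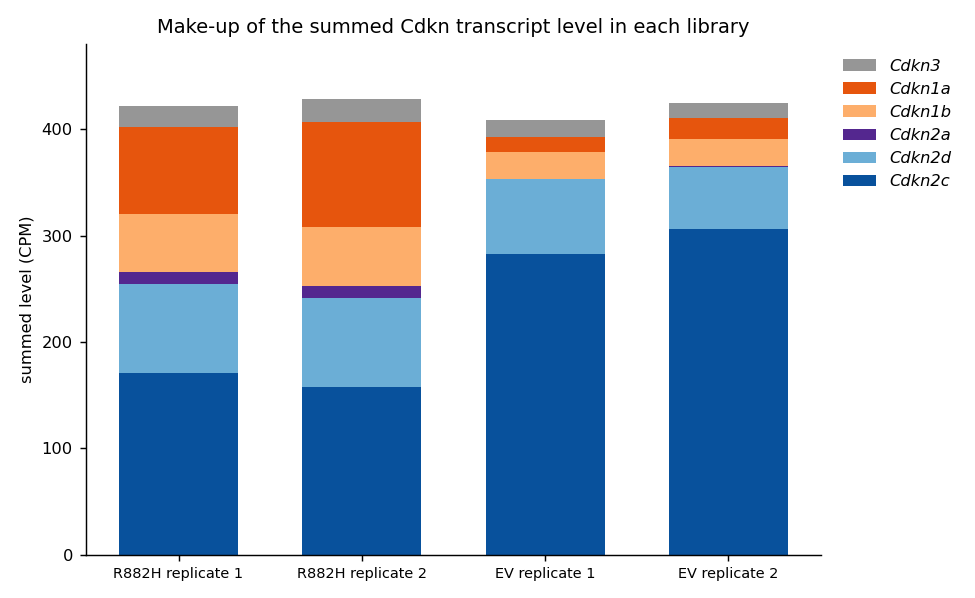
Stacked levels (CPM) of the 6 Cdkn genes that passed the count filter in each library, R882H replicates left and EV replicates right; INK4 genes are blue or purple, CIP/KIP genes orange and Cdkn3 grey. The columns are of nearly equal height, 423 and 428 CPM in R882H and 409 and 424 CPM in EV (sums of all 8), with less Cdkn2c and more Cdkn1a in R882H.

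The order of levels differed between the groups accordingly. In R882H cells Cdkn2c came first, then Cdkn1a and Cdkn2d, whose libraries overlapped (81.3 to 98.7 CPM and 83.2 to 83.4 CPM), then Cdkn1b, Cdkn3 and Cdkn2a. In EV cells Cdkn2c was followed by Cdkn2d, Cdkn1b, and Cdkn1a and Cdkn3, of which the last 2 overlapped (13.8 to 20.3 CPM and 13.4 to 16.3 CPM). Cdkn2a, Cdkn2b and Cdkn1c closed the order in EV cells without separation from each other.

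The genes on which the inhibitors act, and those that control them, were counted in 10 lists, chosen with earlier results of these data known. Of their 142 tested genes outside the family, 30 rose and 24 fell, so that 38.0% were called, close to the 38.8% of all tested genes, with a median log2 fold change of 0.04. The D-type cyclins, partners of CDK4 and CDK6, changed in both directions. Ccnd1 had 356 and 337 counts in R882H cells, against 22 and 23 in EV cells (log2 fold change 3.87 ± 0.21, edgeR adjusted p = 8.15e-17). Ccnd2 rose (0.59 ± 0.13, adjusted p = 0.000602) and Ccnd3 fell (-0.64 ± 0.14, adjusted p = 0.000435), and the D cyclins together summed to 603 and 569 CPM in R882H cells and 496 and 551 CPM in EV cells. The kinase genes were not called, with log2 fold changes of 0.27 ± 0.13 for Cdk4 and -0.17 ± 0.15 for Cdk6. For every 100 tags of Cdk4 and Cdk6 there were 29.0 and 35.2 tags of the family in R882H cells, and 30.1 and 29.2 in EV cells. Exons of all 5 of these genes overlap another counted gene (Ccnd1 with LTO1, Ccnd3 with Bysl, Cdk4 with Tspan31), and without a stated strand setting their reads cannot be told apart.

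Of 7 tested genes for CDK1, CDK2 and their cyclins, 1 rose and 1 fell: Cdk1 (0.51 ± 0.14, edgeR adjusted p = 0.00287) and the cyclin E gene Ccne1 (-0.43 ± 0.16, adjusted p = 0.0342). In the Rb and E2F family, through which the inhibitors hold back S phase genes, 3 of 13 rose and 2 fell. The activator E2f2 (-1.14 ± 0.19) and the repressor E2f8 (-0.84 ± 0.14) fell, and the repressor E2f7 (1.22 ± 0.22), the E2F partner Tfdp2 (0.98 ± 0.22) and Rb1 itself (0.59 ± 0.15) rose on the log2 scale. Of 20 genes of CDK activation and of the ubiquitin ligases that degrade CIP/KIP proteins, 4 rose and 3 fell. Both subunits of the KPC ligase, which ubiquitinates p27, fell: Ubac1 (-0.85 ± 0.13, adjusted p = 4.64e-06) and Rnf123 (-0.49 ± 0.14, adjusted p = 0.00494). Dtl, the substrate receptor that sends p21 to degradation in S phase (0.43 ± 0.13), the CDK-activating kinase subunit Mnat1 (0.48 ± 0.16) and Cks2 (0.37 ± 0.13) rose. Calls were lost in at least 1 alternative for Ccne1 (adjusted p up to 0.351), Cdk1 (0.0547), Rb1 (0.0525), Rnf123 (0.0931), Dtl (up to 0.0788), Mnat1 (up to 0.147) and Cks2 (up to 0.191). Exons of E2f8, Rb1 and Rnf123 overlap those of other counted genes.

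The axis that joins p19Arf to Cdkn1a gave a mixed picture, with 6 of 17 tested genes higher, 4 lower and a median log2 fold change of -0.02. Trp53 was not called (-0.15 ± 0.17, edgeR adjusted p = 0.533). The p53 targets Ccng1, a cyclin G gene that had 281 and 272 counts in R882H cells and 100 and 93 in EV cells (1.45 ± 0.17, adjusted p = 1.83e-08), and Sesn1 (1.07 ± 0.16, adjusted p = 2.46e-06) rose. Targets named after their values were seen also rose, the p53 ligase gene Mdm2 (0.44 ± 0.13), the cell death gene Bbc3 (0.90 ± 0.19), Phlda3 (1.04 ± 0.38) and Trp53inp1 (1.36 ± 0.43), while the target Sesn2 fell (-0.94 ± 0.33). The p53 target Pmaip1, which encodes the cell death protein Noxa, fell (-0.60 ± 0.17, adjusted p = 0.00418), as did the ligase genes Huwe1 (-0.88 ± 0.14) and Trip12 (-0.42 ± 0.13), whose products ubiquitinate p53 or p19Arf. Bax (-0.68 ± 0.28), Gadd45a (-0.56 ± 0.24), Btg2 (-0.31 ± 0.43) and Aen (-0.02 ± 0.14), the list's other tested p53 targets, were not called. Exons of Gadd45a overlap E230016M11Rik. Calls ended in at least 1 alternative for Mdm2 (adjusted p = 0.101 without R882H replicate 2), Phlda3 (up to 0.188), Trp53inp1 (up to 0.395, with a log2 fold change of 0.76 without R882H replicate 1), Sesn2 (up to 0.162), Pmaip1 (0.0646) and Trip12 (up to 0.194).

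Among regulators of the Cdkn2a and Cdkn2b genes, which include the Polycomb proteins that silence them, 1 of 23 tested rose and 4 fell, with a median log2 fold change of -0.03. Twist1, a transcription factor known to repress Cdkn2a products, had 7 and 1 counts in R882H cells, against 160 and 164 in EV cells (edgeR adjusted p = 7.92e-15). Of its 8 R882H counts 7 came from R882H replicate 1, so the fitted log2 fold change of -5.37 ± 0.35 depends on single libraries: leaving that one out gave -7.19, and leaving out the other R882H library gave -4.60. Id1, an inhibitor of helix-loop-helix factors that represses p16Ink4a, fell (-1.24 ± 0.25, adjusted p = 0.00019), and Dmtf1, an activator of p19Arf transcription, rose (0.78 ± 0.17, adjusted p = 0.000426). The other 2 that fell, named after their values were seen, were Suz12, a Polycomb subunit gene (-0.40 ± 0.13), and Zbtb7a, a repressor of p19Arf transcription (-0.48 ± 0.13). Exons of Dmtf1 overlap Tmem243, and those of Suz12 overlap Gm26563. The calls of Suz12 (adjusted p up to 0.18) and Zbtb7a (0.12 without R882H replicate 2) were lost in at least 1 alternative.

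Among transcription regulators of the CIP/KIP genes, 5 of 17 tested rose and 4 fell. Smad3, which carries TGF-beta signals to Cdkn1a and Cdkn2b (1.25 ± 0.21, edgeR adjusted p = 8.71e-06), Foxo3, an activator of Cdkn1b (0.61 ± 0.16), and Myc, a repressor of Cdkn1a (0.59 ± 0.15), rose. Of the list's other TGF-beta genes, the receptor gene Tgfbr2 fell (-0.78 ± 0.24), and Tgfb1, Tgfbr1 and Smad4 were not called. Gfi1, a repressor of Cdkn1a (-0.96 ± 0.14), and the myeloid factor gene Cebpa (-0.74 ± 0.14) fell. Gfi1 exons overlap A430072P03Rik. The calls of Foxo3 (adjusted p = 0.0529) and Myc (up to 0.0569) were lost in at least 1 alternative.

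Among replication and mitosis genes the counts were 5 of 30 higher, 3 lower and a median log2 fold change of 0.07. Mybl2, a transcription factor of dividing cells (-0.96 ± 0.14, edgeR adjusted p = 9.79e-07), and the ribonucleotide reductase gene Rrm2 (-0.62 ± 0.13) fell. The spindle checkpoint gene Bub1b (0.61 ± 0.13), Nusap1 (0.55 ± 0.14) and the helicase gene Mcm6 (0.47 ± 0.13) rose. Nusap1 shares exon positions with Oip5, and its call (adjusted p = 0.0558) and that of Mcm6 (up to 0.0866) were lost in at least 1 alternative. Of the genes named for Cdkn proteins, Cdkn2aipnl rose (0.38 ± 0.13, adjusted p = 0.0226, up to 0.306 in the alternatives) and Cdkn2aip was not called (0.42 ± 0.19).

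**Figure D4:**
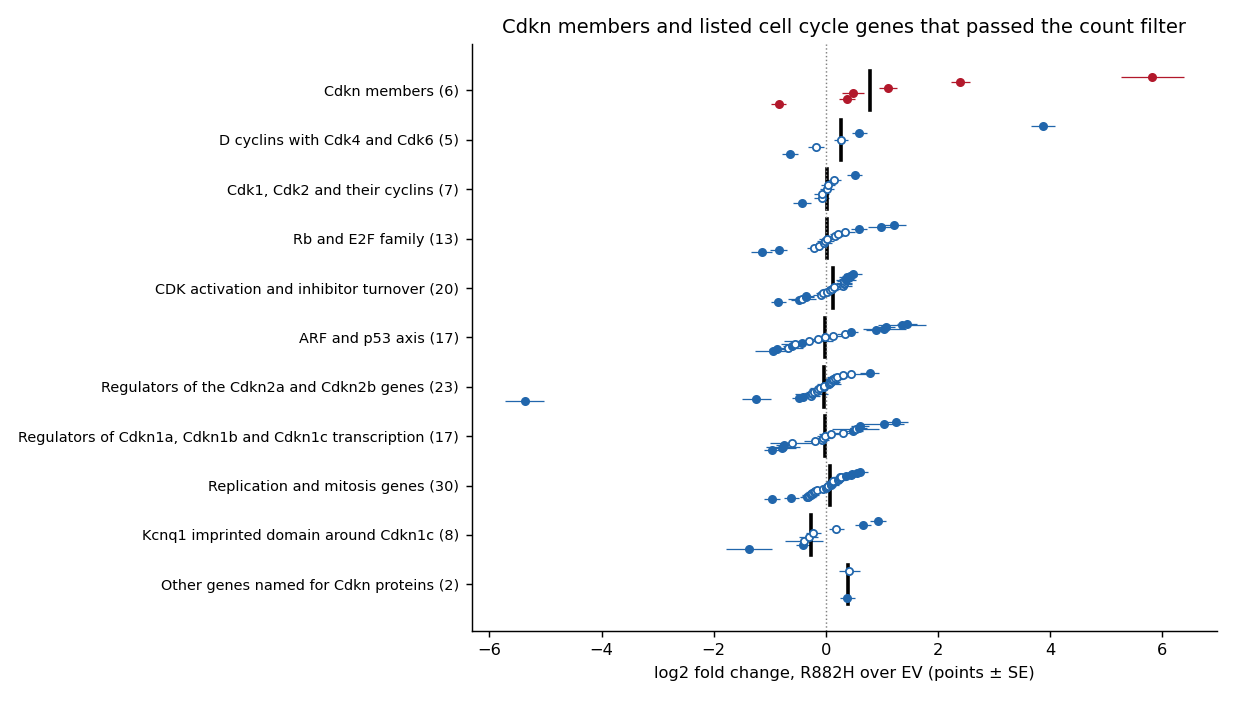
Log2 fold change, R882H over EV, of the Cdkn members (red) and of the listed genes (blue) that passed the count filter, with standard errors; filled points were called, black bars are medians and numbers in brackets count the genes. Members run from -0.84 for Cdkn2c to the fitted value of Cdkn2a, which depends on the prior count, Ccnd1 stands at 3.87 and Twist1 at -5.37 (-7.19 or -4.60 when either R882H library is left out), and most list medians lie near 0.

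Genes beside the members were examined within 100 kb. Of 25 tested neighbours 7 rose and 7 fell, beside 19.3% higher and 19.4% lower among all tested genes, and no test of that difference was made. Beside Cdkn1a, 3 of 4 rose: the GTPase gene Rab44 (1190 and 1168 counts in R882H cells, against 171 and 244 in EV cells; log2 fold change 2.44 ± 0.15, edgeR adjusted p = 1.93e-15), the copine gene Cpne5 (4.20 ± 0.49) and the splicing factor gene Srsf3 (0.43 ± 0.14), and Stk38 was not called (-0.01 ± 0.14). The p53-induced non-coding gene Trp53cor1, 11797 bases from Cdkn1a, had 10 and 11 counts in R882H cells and 2 and 1 in EV cells, too few to be tested. Beside Cdkn2c, Faf1 also fell (-1.37 ± 0.14) and 9630013D21Rik was not called (0.07 ± 0.18). Mtap, the tested neighbour of Cdkn2a, had 435 and 436 counts in R882H cells, against 583 and 577 in EV cells, and fell (-0.48 ± 0.13, adjusted p = 0.00357), so tags of the flanking gene were present in both groups. Beside Cdkn1b, Gpr19 (1.48 ± 0.41) and Crebl2 (2.31 ± 0.52, and 2.9 without EV replicate 1) rose, Ddx47 (-0.33 ± 0.13) fell, and Lockd and Gm44238 were not called. Beside Cdkn2d, Slc44a2 (0.77 ± 0.14) rose, Keap1 (-0.47 ± 0.15) and Pde4a (-0.49 ± 0.16) fell, and 3 were not called, among them Kri1, 441 bases away. None of the 4 tested neighbours of Cdkn3 was called. Calls were lost in at least 1 alternative for Srsf3, Gpr19, Ddx47, Keap1, Pde4a and Mtap, with adjusted p up to 0.444. Exon overlaps of the neighbours are not given here, and Gpr19 and Keap1 had values in 11 of the 12 alternatives.

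Of the 15 listed genes of the imprinted domain around Cdkn1c, 6 had 0 counts in every library, as Cdkn1c did: Kcnq1, Phlda2, Th, Ins2, Igf2 and H19. Slc22a18 had 0 counts in R882H cells and 1 in each EV library. Of the 8 tested genes, 2 rose, the antisense RNA Kcnq1ot1, which silences the domain in cis on the paternal allele (0.67 ± 0.14, edgeR adjusted p = 0.000347), and Tspan32 (0.93 ± 0.14). Ascl2 (-1.37 ± 0.40) and Nap1l4 (-0.40 ± 0.13) fell, as did the neighbour Cars (-0.52 ± 0.17). The calls of Ascl2 (adjusted p up to 0.0977), Nap1l4 (up to 0.153) and Cars (up to 0.152) were lost in at least 1 alternative.

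The 10 RefSeq windows of 7 members (Cdkn1c has none in the table) were searched for short motifs on both strands. The GC box GGGCGG was in 6 windows (32.7% of all windows hold it), the E2F-type motif TTTNNCGC in both Cdkn2a windows (4.28%), and the CHR motif TTTGAA in those of Cdkn2b and Cdkn3 (16%). The p53 decamer was also in the Cdkn2d window, with 1 match. The E-box CACGTG (6.02% of all windows) and TATAAA (12.4%) were in none. CpG numbers in the other members' windows were 28 for Cdkn1b, 12 for Cdkn2b, 29 and 6 for the upstream and downstream starts of Cdkn2c, 16 for Cdkn2d and 18 for Cdkn3.

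By distance over the 4 libraries in log2 CPM, a description with no test, the profiles most like each member were these. Nearest to Cdkn1a were Irf8, Angptl2 and Ypel3 (distances 0.724 to 0.745), and near to Cdkn1b were Dok2 and Cd79b (0.183 and 0.207). For Cdkn2a they were Gm48226, whose exons overlap Gphn, the Y-linked Ddx3y and Ggh (0.599 to 0.685). Ddx3y had 65 and 41 counts in R882H cells and 0 and 2 in EV cells. For Cdkn2c they were Eif3c, Psmd7 and Atp6v0c (0.160 to 0.191), for Cdkn2d Fopnl, Tspyl1 and Akap8 (0.117 to 0.133), and for Cdkn3 Tbc1d23, Pex2 and Zfp68 (0.0967 to 0.133). Exons of Tbc1d23 overlap Gm16892, and those of Zfp68 overlap Gm42815.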

How the data were processed

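QuantSeq 3′ mRNA libraries of 4 Hoxb8 samples were sequenced as single-end reads, per the labels' protocols. The deposited values are raw counts per gene, not normalised; the submitters' processing notes name cutadapt 1.14, HISAT2 2.0.4, featureCounts in Subread 2.0.0 and the build mm10, and the counting strand is not given in the sources used here. Symbols and positions came from GENCODE M21, and promoter windows from RefSeq (GRCm38.p6), each the 250 bases before a transcript start. All 11444 genes kept by filterByExpr were fitted with edgeR 4.0.16 (R 4.3.3; TMM, robust quasi-likelihood F test, Benjamini-Hochberg adjustment over all of them, threshold 0.05), and the steps were tested on simulated data. Standard errors are the log2 fold change over the root of F. CPM used TMM-scaled library sizes. Intervals and the floor of 3 counts cover counting error only. The alternatives were other scalings, filters, DESeq2 1.42.0, a replicate block, leaving out each library and leaving out genes with overlapping exons.

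The members and lists were chosen with earlier results of these data known. From each list the text names the 3 called genes of lowest p and at most 2 called in the opposite direction (every called gene where fewer than 4 were), plus tested genes within 100 kb of a member and the 3 nearest profiles of each tested member. Cdk4, Cdk6, Trp53, Mdm2, Bbc3, Phlda3, Trp53inp1, Sesn2, Suz12, Zbtb7a and Cdkn2aip were added after their values were seen. So were Bax, Gadd45a, Btg2, Aen, Tgfbr2, Tgfb1, Tgfbr1 and Smad4, which are not among the genes followed through the alternatives. A few genes that these rules name are not reported here.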

Additional observations from a re-analysis of the deposited data

How the results depend on the processing

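Counts of called genes depended on the test and on single libraries. DESeq2 called 1401 of all genes higher and 1517 lower, and 3 Cdkn genes higher and 1 lower. Leaving out each library in turn gave 1508 to 2065 genes higher and 1446 to 2168 lower, 3 to 5 Cdkn genes higher and 1 lower each time, and 17 to 27 listed partner genes higher and 16 to 26 lower. The lowest partner count, 17 higher, was without R882H replicate 1. These fits hold 1 sample in a group, which is assumed to vary like the other group. With DESeq2 size factors, library size alone, no filter, no robust fit or no overlapping genes, 4 Cdkn genes were called higher, Cdkn3 being the one lost. The cause of these changes was not tested. Over 97 named genes and 12 alternatives, 1029 of 1140 values kept direction and call, 103 lost the call, 3 gained it and 5 changed sign. The sign changes were in genes not called, whose log2 fold changes ran, leaving out each library, from -0.076 (without R882H replicate 1) to 0.23 for 9630013D21Rik, from -0.19 to 0.17 for Stk38 (above 0 without R882H replicate 1 or EV replicate 2), from -0.36 to 0.018 for Cdk6 (without R882H replicate 2) and from -0.38 to 0.12 for Trp53 (without EV replicate 2). With the replicate number as a block, 2196 genes were higher and 2229 lower, with 5 and 1 Cdkn genes and 29 and 25 partner genes. Same-numbered libraries did not deviate together (correlation -0.003). With so few libraries per group, that value cannot settle whether the numbers pair them. At 5470330 to 5921985 counts per library, Cdkn1c and Cdkn2b were not detectable beyond the floor of 3 counts.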
